A study of Mus musculus with 27 samples.

Results

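Transcripts of the voltage-gated sodium and calcium channels were followed in the fetal brain of 3 mouse strains on gestational d12, d15 and d17. The genes were chosen by symbol alone: the Scn genes of the sodium channel alpha and beta subunits, and the Cacna1, Cacna2d, Cacnb and Cacng genes of the calcium channel alpha1, alpha2delta, beta and gamma subunits. They came to 40 of the 55416 genes in the read-count table, namely 10 sodium alpha, 4 sodium beta, 10 alpha1, 4 alpha2delta, 4 beta and 8 gamma genes. All 40 are protein-coding genes of the GENCODE M39 annotation on GRCm39.

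The 9 groups held 3 libraries each. C57BL/6J is an inbred strain with a long life span, AKR/J is an inbred strain with a short one, and Cav1-null mice (B6.Cg-Cav1tm1Mls/J) are a congenic strain, also short-lived, in which the caveolin-1 gene is disrupted. Caveolin-1, written Cav1, is a scaffold protein of membrane pits and is not one of the calcium channels, whose proteins carry similar names. The day of the vaginal plug was day 1 of pregnancy, the whole brain was dissected from snap-frozen fetuses, and every library is labelled as female. The labels do not say which fetuses shared a litter, so p-values measure the spread between these samples only.

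Libraries held 26363697 to 39759702 reads on genes, with a median of 29700746. Cav1 was at 0 to 0.509 CPM, a read count scaled to the library size, in the Cav1-null libraries, at 9.24 to 34.2 CPM in AKR/J and at 10.4 to 39.9 CPM in C57BL/6J. Of 27 libraries, 3 did not match the labelled sex. Cav1-null d12 replicate 2 had 3.7 CPM of Xist and 428 CPM summed over 4 genes of the Y chromosome, AKR/J d12 replicate 1 had both Xist (2770 CPM) and Y genes (50.6 CPM), and AKR/J d15 replicate 3 had neither (3.29 CPM of Xist). AKR/J on d12 also stood apart in blood markers, while the sums of its extra-embryonic markers overlapped with those of the other d12 groups. The 12 erythroid genes summed to 33240, 101700 and 197900 CPM there (in ascending order) against 1944 to 5351 CPM in the other d12 groups, the 10 trophoblast and decidua genes to 35.5 to 851 CPM against 0.347 to 68.3 CPM, and the 10 yolk sac genes to 45.9 to 1916 CPM against 82 to 624 CPM. By gene, 3 of 5 tested trophoblast and 6 of 8 tested yolk sac genes were higher in AKR/J than in C57BL/6J on d12, and 0 lower. Their median log2 fold changes were 5.08 and 7.32. Markers of the labelled tissue were present in every library, since the 14 neuronal genes summed to at least 2359 CPM and the 12 genes of neural progenitors to at least 556 CPM. Below, counts of called genes and the fold changes of 6 genes are also given with single libraries left out.

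Voltage-gated sodium channels open on depolarization and carry the rising phase of the action potential, and voltage-gated calcium channels turn depolarization into calcium entry that drives transmitter release, gene expression and rhythmic firing. In both families a single large alpha subunit forms the pore and the voltage sensor, while smaller subunits set its trafficking, gating and anchoring. Most of the Cacng genes encode proteins known as transmembrane AMPA receptor regulatory proteins (TARPs), which accompany glutamate receptors. Many alpha transcripts are spliced differently in the embryonic and the mature brain, which changes gating or drug binding.

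The sequences of 2 coding exons are shown here so that what is included or skipped can be read. The first is a cassette exon of Cacna1g, which encodes a T-type calcium channel, on which the splicing calls of the main test rest. The second is a cassette exon of Cacna1e, which encodes the R-type channel and was called only with a lower read minimum that was chosen after seeing the data. Both are read from the minus strand of GRCm39, Cacna1g at chr11:94303916-94304050 (135 bases) and Cacna1e at chr1:154349603-154349659 (57 bases). Capitals mark the exon and lower case the 20 intron bases on either side. Each exon has a length divisible by 3.
Cacna1g cassette exon: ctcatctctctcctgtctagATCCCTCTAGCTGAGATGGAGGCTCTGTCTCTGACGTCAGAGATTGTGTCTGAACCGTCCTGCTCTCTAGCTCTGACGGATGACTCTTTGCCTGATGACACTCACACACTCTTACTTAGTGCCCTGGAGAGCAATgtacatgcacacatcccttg
Cacna1e cassette exon: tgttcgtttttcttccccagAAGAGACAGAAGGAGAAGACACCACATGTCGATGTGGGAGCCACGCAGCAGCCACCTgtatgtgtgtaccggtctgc

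The first question was how the channel genes changed between d12 and d15, called the early phase, and then up to d17, the late phase, within each strain. Many channel transcripts rose, and 13 of the 40 were called higher in no comparison of days. In the early phase 24 of the 36 channel genes tested in AKR/J rose (66.7%), compared with 14.8% of all tested genes. The count was 16 of 38 (42.1%) in C57BL/6J against 7.08%, and 17 of 38 (44.7%) in Cav1-null mice against 11.6%. A single fall was found, that of Scn4b in Cav1-null mice, where 11.8% of all tested genes fell (14% in AKR/J and 7.8% in C57BL/6J). In whole brains, fewer cells of a type and less RNA per cell cannot be told apart. All calls are from edgeR's quasi-likelihood test at a Benjamini-Hochberg adjusted p below 0.05 over all tested genes, and fold changes are log2 of the later over the earlier day with their SE.

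Rises were again found in the late phase in every strain. In AKR/J 13 of 37 channel genes rose (35.1%, against 11.6% of all genes), in C57BL/6J 4 of 38 (10.5%, against 7.46%, a share near the background) and in Cav1-null brains 18 of 37 (48.6%, against 14.5%), and no channel gene fell (falls made up 10.4%, 5.58% and 12.8% of all genes, and DESeq2 called 1 channel gene lower, in C57BL/6J). The median log2 fold change of the tested channel genes was 1.12, 0.55 and 0.49 in the early phase (AKR/J, C57BL/6J and Cav1-null) and 0.31, 0.18 and 0.40 in the late phase, while the median of all tested genes lay between -0.04 and 0.03 in the 6 comparisons. Over these comparisons 92 of 224 tests of a channel gene were rises and 1 was a fall. In all, 27 genes rose at least once, 14 of them in all 3 strains in the early phase and 3 of them, Scn1a and Scn2a included, in all 3 strains in the late phase as well. The d15 libraries serve both phases, so the phases are not independent.

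Some of these counts changed when a library was left out. Without AKR/J d12 replicate 1, whose sex markers were mixed, 20 genes rose early in AKR/J (18.1% of all genes called in either direction), and without AKR/J d15 replicate 3 the count was 15 (12.4%). Without Cav1-null d12 replicate 2 the early count of Cav1-null mice was 13 (17.1%), and 11 (11.7%) without d15 replicate 1. The C57BL/6J counts had the widest ranges relative to their size: the early count was 1 (1.67%) without d12 replicate 1 and 0 (0% to 0.0303%) when any of the d15 libraries was left out. The late count was 0 without d15 replicate 1, d15 replicate 2 or d17 replicate 3 (1.77%, 1.29% and 0.767%), 2 without d15 replicate 3 (3.79%), and 14 (8 higher, 6 lower) without d17 replicate 1, when 33.2% of all genes were called. The late AKR/J count was 8 without d17 replicate 3 (8.32%). A single model of all 27 libraries gave 8, 7 and 2 late calls (AKR/J, C57BL/6J and Cav1-null), when 10.2%, 19.6% and 3.56% of all genes were called, so that 2 channel genes in place of 18 were called late in Cav1-null mice.

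Scn1a, Scn2a, Scn3b, Cacna1e, Cacna1i and Cacng3 rose early in AKR/J with and without either of the AKR/J libraries that did not match the label. Without d12 replicate 1 the log2 fold change was 1.72 for Scn1a, 1.52 for Scn2a, 2.55 for Scn3b, 2.47 for Cacna1e, 1.94 for Cacna1i and 4.36 for Cacng3, with adjusted p-values of 0.00267 to 0.0247 in edgeR's test. Without d15 replicate 3 it was 1.92, 1.49, 2.54, 2.77, 2.23 and 3.51 in the same order (adjusted p of 0.00554 to 0.0273). In Cav1-null mice without d12 replicate 2 the early change was 1.22, 0.88, 0.67, 1.48, 0.73 and 1.38, and all but Cacna1i were called by edgeR (adjusted p of 0.000518 to 0.0106, and 0.0645 for Cacna1i).

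**Figure D1:**
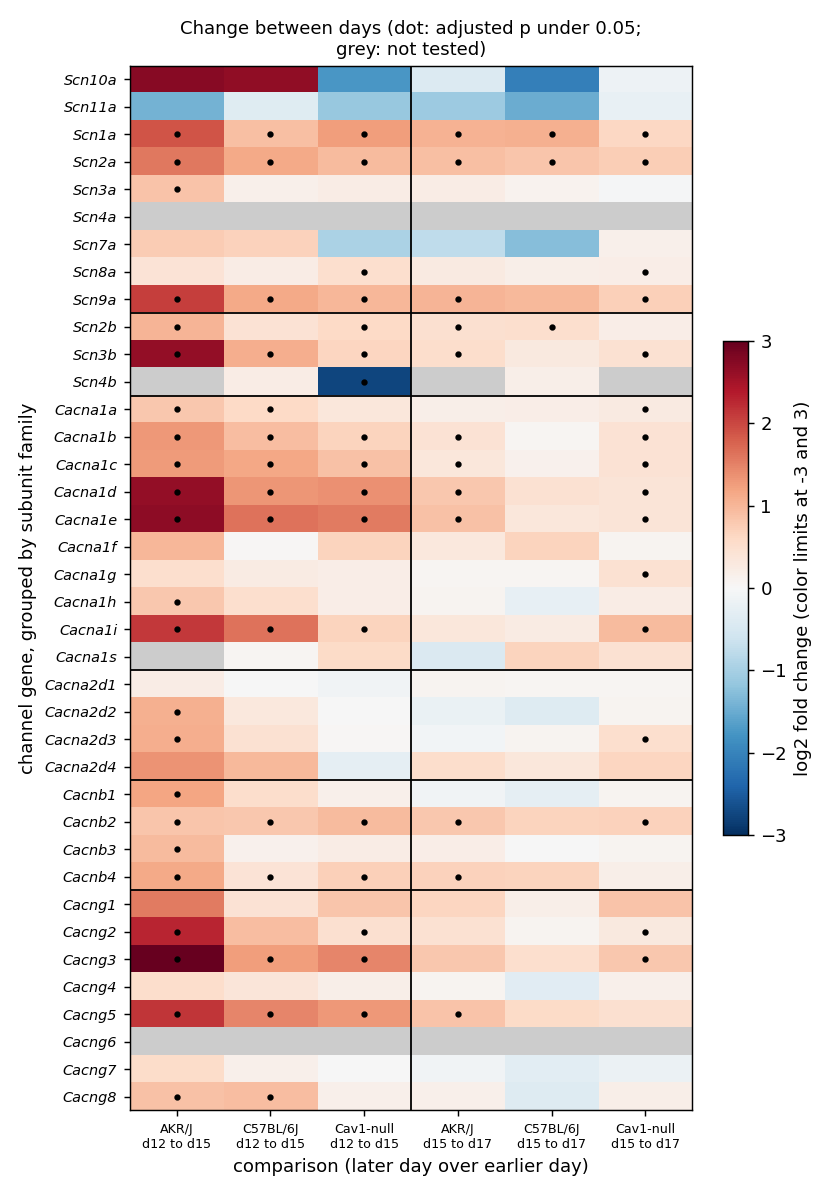
Log2 fold change of 38 channel genes (rows, by subunit family) from d12 to d15 and from d15 to d17 in the 3 strains (columns). Red stands for a rise, blue for a fall, grey for a gene that was not tested, and a dot for an adjusted p below 0.05; the only dot on a blue cell is that of Scn4b in Cav1-null mice from d12 to d15.

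Cell-type markers changed between the same days, but not always in step with the channel genes. The median log2 fold change of the neuronal genes was 1.29, 0.57 and 0.23 early (AKR/J, C57BL/6J and Cav1-null). In the late phase it was 0.16, -0.14 and 0.17. Of the 14 neuronal genes 10, 5 and 5 rose in the early phase and 3, 3 and 7 in the late phase (AKR/J, C57BL/6J and Cav1-null), with 1 fall in each phase of Cav1-null mice. Of the 12 genes of neural progenitors 6, 6 and 9 fell in the early phase and 10, 9 and 10 in the late phase, with 1 rise early in AKR/J and 1 late in Cav1-null mice. The summed level of the progenitor genes went from a median of 2400 CPM on d12 to 1450 on d15 and 671 on d17 in AKR/J, from 3219 to 2248 and 785 in C57BL/6J, and from 2261 to 886 and 570 in Cav1-null mice. The neuronal sum went from 2637 to 6021 and 7260 CPM in AKR/J, from 6065 to 9590 and 8146 in C57BL/6J and from 5660 to 6832 and 7527 in Cav1-null mice. Early in AKR/J 11 of 12 erythroid, 6 of 8 tested yolk sac and 5 of 5 tested trophoblast genes also fell, and 0 rose. The part of a changing share of neurons or of these other cells in the rise of the channel genes was not tested.

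Among the sodium channel alpha subunits, which form the pore, Scn1a, Scn2a and Scn9a rose in the early phase of every strain. Scn1a is best known from inhibitory interneurons and from genetic epilepsy, and in AKR/J it stood at 8.61, 13.9 and 11.5 CPM in the d12 libraries, at 46.7, 41.1 and 41.8 on d15 and at 74.4, 92.6 and 97.6 on d17. In C57BL/6J it stood at 25.9, 22.6 and 13.7 CPM on d12, at 35.0, 38.8 and 45.5 on d15 and at 59.6, 107 and 74.7 on d17. The Cav1-null libraries held 28.1, 27.7 and 28.9 CPM of Scn1a on d12, 66.0, 64.9 and 70.3 on d15 and 109, 104 and 96.8 on d17. Within each strain the libraries of the 3 days did not overlap. The rise from d12 to d15 was 1.88 ± 0.21 in AKR/J (adjusted p = 0.0014), 0.89 ± 0.23 in C57BL/6J (0.0437) and 1.25 ± 0.085 in the Cav1-null strain (0.000116), and from d15 to d17 it was 1.04 ± 0.12 (0.00128), 1.07 ± 0.21 (0.022) and 0.62 ± 0.073 (4.36e-05) on the log2 scale, in edgeR's test.

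Scn2a, located at chr2:65451102-65597795 on the plus strand, had 27.9, 28.9 and 35.7 CPM on d12 in AKR/J, 96.1, 80.9 and 110 on d15 and 164, 176 and 192 on d17. In C57BL/6J it had 51.9, 63.1 and 29.9 CPM on d12, 98.2, 110 and 117 on d15 and 187, 194 and 175 on d17, and in the Cav1-null strain 54.6, 60.1 and 77.9, then 126, 122 and 122, then 202, 208 and 205. The order of days was again free of overlap in each strain, and on d17 the 9 libraries of the 3 strains lay within 164 to 208 CPM. The early rise of Scn2a was 1.59 ± 0.18 in AKR/J (adjusted p = 0.00136), 1.13 ± 0.24 in C57BL/6J (0.0297) and 0.94 ± 0.13 in the Cav1-null strain (0.00198), and the late rise was 0.91 ± 0.11 (0.0017), 0.83 ± 0.13 (0.0103) and 0.74 ± 0.066 (5.62e-06) in edgeR's test. Scn9a, known best from pain-sensing neurons and also expressed in the brain, rose by 2.08, 1.13 and 0.99 early and by 1.01 (AKR/J) and 0.72 (Cav1-null) later, and its late change of 0.97 in C57BL/6J missed the threshold (adjusted p = 0.0509).

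Scn3a and Scn8a behaved differently from these 3 genes. Scn3a, the alpha subunit known for its high expression in embryonic brain, rose early in AKR/J alone by the test (0.86 ± 0.22, adjusted p = 0.0216), with changes of 0.16 and 0.23 in C57BL/6J and Cav1-null mice (adjusted p = 0.344 and 0.111). Scn8a, the main sodium channel of mature axon initial segments and nodes, rose in Cav1-null mice by 0.50 (adjusted p = 0.00299) and then by 0.20 (0.0443), with early changes of 0.40 and 0.23 in AKR/J and C57BL/6J (0.267 and 0.144) by edgeR.

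The remaining alpha subunits were scarce. Scn4a of skeletal muscle had 0 reads in 8 libraries and at most 14 reads, so that it entered no test, and Scn7a, Scn10a and Scn11a, known from sensory neurons and glia, lay between 0 and 5.95 CPM and were called in no comparison of days. Their libraries are described among the other observations.

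The small sodium channel beta subunits, which set the surface level of the alpha subunit and act as adhesion molecules, rose early in 3 of 3 tested genes in AKR/J, 2 of 4 in C57BL/6J and 3 of 4 in Cav1-null mice. Scn3b was the most abundant beta subunit and rose in 5 of the 6 comparisons. Its early rise was 2.64 ± 0.19 in AKR/J (adjusted p = 0.000519), 1.08 ± 0.29 in C57BL/6J (0.0473) and 0.66 ± 0.10 in the Cav1-null strain (0.00309), and its late change in C57BL/6J was 0.28 (0.3). Scn2b rose early by 1.02 in AKR/J and 0.59 in Cav1-null mice and late by 0.47 in AKR/J and 0.50 in C57BL/6J. Scn4b, a subunit known from mature neurons, went the other way at very low counts: the Cav1-null libraries held 10, 16 and 22 reads on d12, 2, 4 and 0 on d15 and 6, 12 and 6 on d17. The d15 libraries lay below all others, and the early fall was 2.76 ± 0.77 in size (log2 fold change -2.76, adjusted p = 0.0319), or -2.74 with an adjusted p of 0.0787 without replicate 2 of d12.

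**Figure D2:**
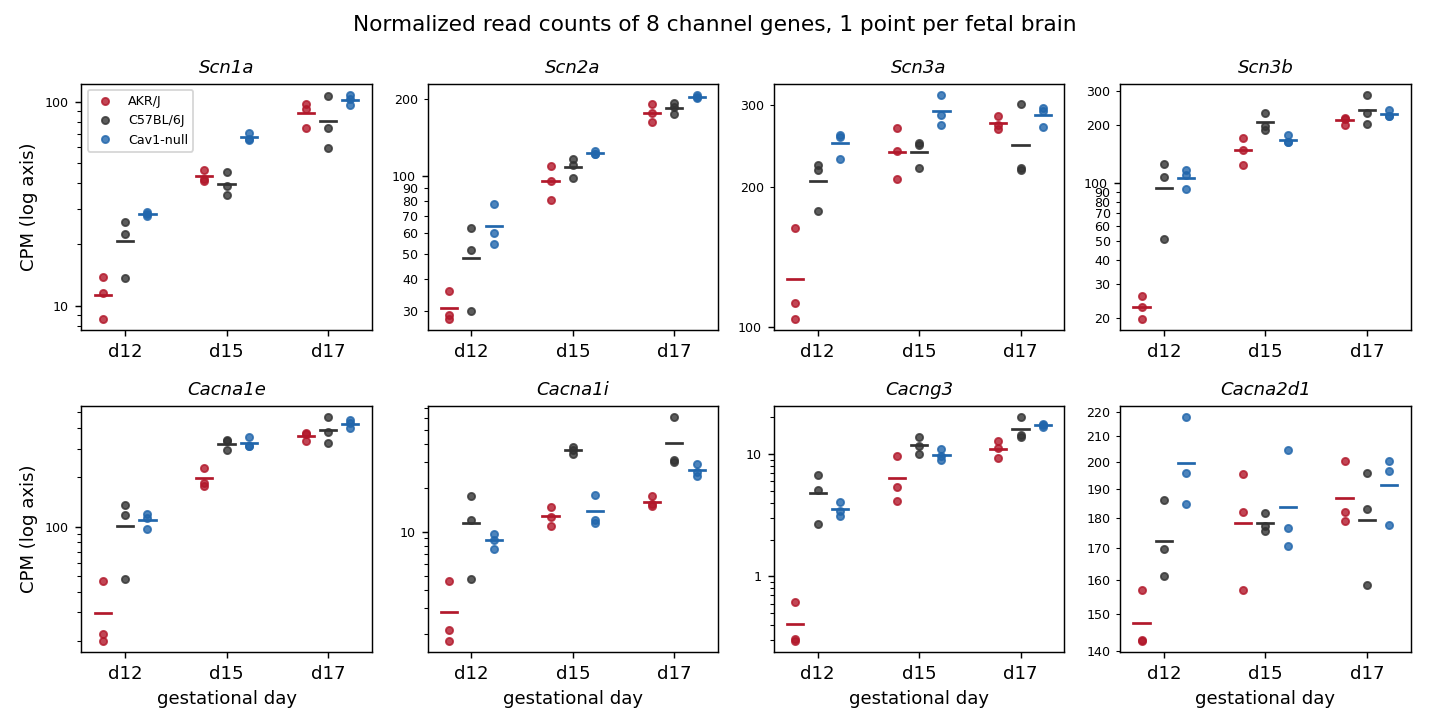
Expression in CPM (log axis, a scale for each panel) of 8 channel genes by gestational day, with a point for each library and a bar at the group mean, colored by strain. Scn1a and Scn2a form separate levels over the days in each strain, Cacna2d1 stays within 143 to 218 CPM, and Cacng3 is under 1 CPM on d12 in AKR/J.

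Among the pore-forming alpha1 subunits of calcium channels, 7 of 9 tested genes rose early in AKR/J, 6 of 10 in C57BL/6J and 5 of 10 in Cav1-null mice, and 4, 0 and 7 of 10 rose in the late phase. Cacna1e, the R-type channel gene whose exon is shown above, had the largest early rise in C57BL/6J. In AKR/J it was at 19.9, 46.8 and 22 CPM on d12, at 227, 186 and 177 on d15 and at 335, 375 and 367 on d17. In C57BL/6J it was at 118, 136 and 47.9 CPM, then 295, 338 and 334, then 378, 469 and 325, and the Cav1-null libraries were at 113, 96.6 and 119, then 311, 310 and 353, then 448, 431 and 400. AKR/J began lowest, and d15 and d17 overlapped in C57BL/6J only. The early rise was 2.68 ± 0.34 in AKR/J (adjusted p = 0.00197), 1.64 ± 0.33 in C57BL/6J (0.0287) and 1.57 ± 0.11 in the Cav1-null strain (0.000123), and the late change was 0.88, 0.34 and 0.40, called in AKR/J and Cav1-null mice (0.00167, 0.202 and 0.0024) by edgeR.

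Cacna1i, a T-type channel gene of thalamic and other neurons at chr15:80171436-80282482 on the plus strand, was low on d12 in AKR/J. Its values in AKR/J were 2.10, 4.57 and 1.78 CPM on d12, 14.7, 12.5 and 10.9 on d15 and 15.4, 14.9 and 17.5 on d17. In C57BL/6J they were 12.1, 17.5 and 4.76 CPM, then 33.9, 36.4 and 38.2, then 61.1, 29.9 and 31.1, and the Cav1-null values were 8.82, 9.67 and 7.65, then 17.8, 11.5 and 12.1, then 24.2, 29.1 and 25.6. On d15 every C57BL/6J library lay above every library of the other strains. The early rise was 2.11 ± 0.40 in AKR/J (adjusted p = 0.00696), 1.63 ± 0.39 in C57BL/6J (0.0378) and 0.66 ± 0.20 in the Cav1-null strain (0.0411, or 0.0645 without d12 replicate 2), and Cav1-null mice alone passed the test in the late phase, with 0.94 ± 0.15 (0.000448) against 0.34 (0.138) and 0.24 (0.577) by edgeR.

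The L-type genes Cacna1c and Cacna1d, which couple activity to gene expression, and the N-type gene Cacna1b, which serves transmitter release, rose in the early phase of all 3 strains. The rise was 1.28, 1.15 and 0.89 for Cacna1c, 2.65, 1.33 and 1.38 for Cacna1d and 1.31, 0.93 and 0.66 for Cacna1b (AKR/J, C57BL/6J and Cav1-null). Cacna1a, the P/Q-type gene of most central synapses, rose early in AKR/J and C57BL/6J (0.82 and 0.59) and late in Cav1-null mice (0.28). The T-type genes Cacna1g and Cacna1h had smaller early changes, 0.50, 0.25 and 0.21 for Cacna1g, none of them called, and 0.80, 0.50 and 0.20 for Cacna1h, called in AKR/J. Cacna1s of skeletal muscle (0 to 1.22 CPM) and Cacna1f of the retina (0.203 to 1.74 CPM) were called in no comparison.

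The accessory subunits split by gene. Of the alpha2delta genes, whose products carry the pore to the membrane, Cacna2d1 was called in no comparison and stayed within 143 to 218 CPM over all 27 libraries, with early changes of 0.23 in AKR/J and -0.12 in Cav1-null mice (adjusted p = 0.335 and 0.435). Cacna2d2 and Cacna2d3 rose early in AKR/J, by 1.07 and 1.08, and Cacna2d3 also late in Cav1-null mice, by 0.50. Cacna2d4 lay between 0 and 1.27 CPM. Of the cytoplasmic beta subunits, which protect the pore from degradation, Cacnb2 and Cacnb4 rose in the early phase of all strains (0.84, 0.81 and 0.94 for Cacnb2, and 1.15, 0.41 and 0.71 for Cacnb4), whereas Cacnb1 and Cacnb3 passed the test early in AKR/J only (1.19 and 0.96).

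The Cacng genes split into TARPs that rose and TARPs that did not pass the test. Cacng3, a TARP of cortical neurons at chr7:122269715-122368619 on the plus strand, had the largest fold change of all members, 3.92 ± 0.51 early in AKR/J (adjusted p = 0.00201). It was at 0.618, 0.296 and 0.305 CPM there on d12 (15, 9 and 6 reads), at 5.37, 4.16 and 9.75 on d15 and at 9.24, 11.4 and 12.8 on d17. In C57BL/6J it was at 5.08, 6.81 and 2.67 CPM, then 10.1, 11.8 and 13.9, then 20.2, 13.9 and 14.4, and the Cav1-null libraries were at 3.41, 3.15 and 4.05, then 8.89, 10.9 and 9.62, then 17.8, 17.4 and 16.6. The AKR/J libraries of d12 lay below every other library, while the d15 and d17 libraries of the 3 strains all lay between 4.16 and 20.2 CPM. The early rise was 1.26 ± 0.32 in C57BL/6J (adjusted p = 0.0424) and 1.47 ± 0.19 in Cav1-null mice (0.00139) by edgeR.

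Cacng5 rose in the early phase of all strains (2.14, 1.46 and 1.30), Cacng2, the stargazin gene, in that of AKR/J and Cav1-null mice (2.28 and 0.48) and Cacng8 in that of AKR/J and C57BL/6J (0.88 and 0.93). Cacng4 and Cacng7 passed the test in no comparison of days. Cacng1, the gamma subunit of skeletal muscle, lay between 0.0329 and 1.14 CPM, and Cacng6 had 0 reads in 6 libraries and at most 18, so that it was not tested.

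Since long transcripts collect more reads, the make-up of each family was compared in CPM per kb of exon length. That length joins all annotated exons of a gene and can far exceed its longest transcript. It was 22094 bases against 9016 for Cacna2d1, and 7945 against 5808 for Cacna2d2. For Cacna1e it was 25632 against 15337, and for Cacna1g 10343 against 8687. Shares and the order of genes within a family depend on this choice of length. Summed over the 10 sodium alpha subunits the level was 20.8 ± 4.92 CPM per kb on d12, 41.8 ± 3.29 on d15 and 59.6 ± 3.74 on d17 in AKR/J (mean ± SD, n = 3), 31.2 ± 4.75, 43.6 ± 2.38 and 56.9 ± 9.88 in C57BL/6J, and 36.4 ± 3.45, 52.3 ± 2.3 and 66.5 ± 2.57 in the Cav1-null strain. Scn3a made up the greatest mean share in every group, with 45.3%, 42.4% and 34.3% on d12, d15 and d17 in AKR/J, 49.5%, 40.7% and 32.2% in C57BL/6J and 51%, 41.4% and 32% in the Cav1-null strain. The share of Scn2a went from 11.8% to 17.5% and 22.8% in AKR/J, from 11.6% to 19.1% and 25.3% in C57BL/6J and from 13.5% to 18.1% and 23.7% in Cav1-null mice. Scn1a and Scn9a took larger shares with each day as well, Scn1a from between 4.72% and 6.73% on d12 to between 12% and 13.4% on d17, whereas Scn8a went from 28%, 24.6% and 18% on d12 to 16.1%, 17.7% and 15.8% on d17. Shares are given as a description, without a test.

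In the alpha1 family Cacna1g had the highest mean level in every group except Cav1-null mice on d15, where Cacna1b did and the libraries of both overlapped. The mean share of Cacna1g went from 45.1% to 25.9% in AKR/J, from 34.1% to 23.5% in C57BL/6J and from 26.4% to 21.3% in Cav1-null mice between d12 and d17. Cacna1e took 3.22%, 6.02% and 8.75% of the family on d12 and 15.8%, 14.1% and 16.8% on d17, and Cacna1d 2.04%, 3.73% and 5.65% on d12 and 9.17%, 7.58% and 9.69% on d17. Cacnb3 held 64.4% to 70.9% of the beta subunits in the group means, Cacng4 47.1% to 54.6% of the Cacng family and Scn3b 59.3% to 80.5% of the sodium beta subunits. Cacna2d2 (38.9% to 60.6%) and Cacna2d1 (26.2% to 49.2%) shared most of the alpha2delta family.

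**Figure D3:**
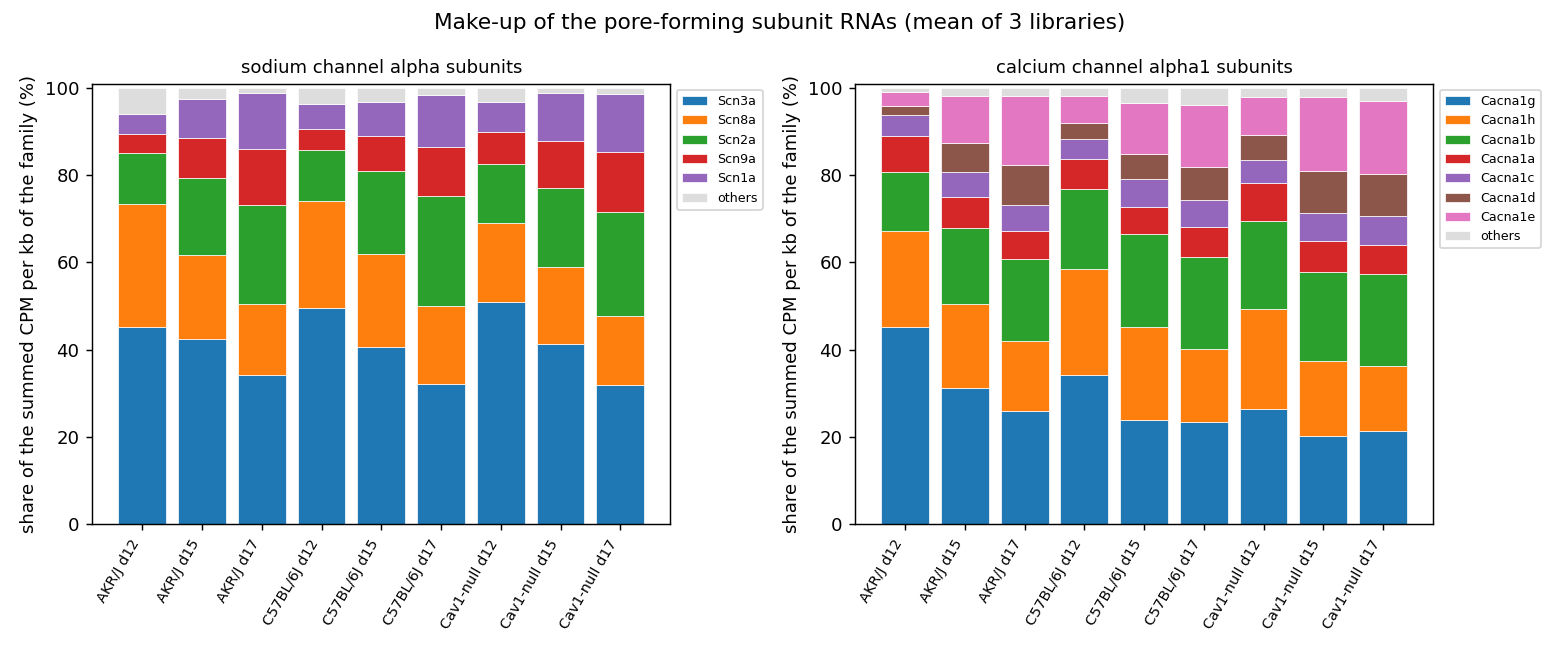
Mean share (%) of each gene in the summed CPM per kb of the sodium alpha (left) and calcium alpha1 (right) subunits, in stacked bars for the 9 groups of 3 libraries. The share of Scn3a shrinks from d12 to d17 in each strain while those of Scn1a, Scn2a and Scn9a grow, and Cacna1e and Cacna1d hold more of the alpha1 family on d17 than on d12.

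The second question was whether the short-lived strains differed from C57BL/6J on a given day. On d12 the AKR/J libraries had less of 15 of 35 tested channel genes (42.9%) and more of none, where 14.1% of all tested genes were lower and 14.5% higher (28.6% in either direction). The genes were Cacna1b, Cacna1d, Cacna1e, Cacna1h and Cacna1i, Cacna2d2, Cacnb1 and Cacnb3, Cacng2, Cacng3, Cacng4, Cacng7 and Cacng8, and Scn2b and Scn3b. Cacng3 differed most, with a log2 fold change of -3.42 ± 0.53 (adjusted p = 0.0115), followed by Scn3b and Cacng2, both at -1.90. Of the 14 neuronal genes 7 were lower and 0 higher here (median log2 fold change -1.1), 3 of 10 genes of endothelium and microglia were lower and 1 higher, 2 of 10 of astrocytes and the oligodendrocyte lineage were lower, and 11 of 12 erythroid, 3 of 5 tested trophoblast and 6 of 8 tested yolk sac genes were higher. The part of these markers in the comparison was not tested. The count was 2 without AKR/J replicate 1 (Cacng3 at -3.86 and Scn3b at -1.82), 3 without AKR/J replicate 3, 4 without C57BL/6J replicate 1 and 0 without C57BL/6J replicate 2, when 6.8%, 7.48%, 8% and 0.122% of all genes were called, while a single model of all 27 libraries called 26 lower and 0 higher (47% of all genes called).

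On d15 AKR/J had less of 16 and more of 1 (Cacnb4) of 38 channel genes, when 41.1% of all tested genes were called (22.3% lower and 18.8% higher). In either direction the share of channel genes, 44.7%, was near that background. By direction it was 42.1% lower and 2.63% higher. The lower genes were 7 alpha1 genes (Cacna1a, Cacna1b, Cacna1c, Cacna1d, Cacna1e, Cacna1h and Cacna1i), Cacna2d2, Cacnb1, Cacnb3, Cacng2, Cacng4, Cacng5, Cacng7, Cacng8 and Scn3b. Cacna1i led with -1.44 ± 0.13 (adjusted p = 0.00029), with the values by library given above. The count was 11 in a single model of all 27 libraries (22.5% of all genes called). Without C57BL/6J replicate 2 it was also 11 (28.3%), and without AKR/J replicate 3, the library with neither Xist nor Y genes, 15 (37.4%), with Cacna1i at -1.36 (adjusted p = 0.000303, edgeR). Of the neuronal genes 7 of 14 were lower and 0 higher in AKR/J, of the progenitor genes 5 of 12 lower and 2 higher, of the genes of astrocytes and the oligodendrocyte lineage 5 of 10 lower, of those of endothelium and microglia 5 of 10 lower and 2 higher, and of the erythroid genes 8 of 12 higher and 1 lower. Their part in the comparison was not tested.

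Cav1-null mice differed from C57BL/6J on d15 in 25 of 38 channel genes, 18 lower and 7 higher, when 58.6% of all tested genes were called (31.8% lower and 26.8% higher). In either direction the share of channel genes, 65.8%, was near that background. By direction it was 47.4% lower and 18.4% higher. A single model of all 27 libraries called 12, 10 lower and 2 higher (35.1% of all genes). The 7 higher genes were Scn1a, Scn2a, Scn3a and Scn9a, Cacna1d, Cacnb2 and Cacnb4. The lower genes included Cacna1a, Cacna1b, Cacna1c, Cacna1g, Cacna1h and Cacna1i, Cacna2d2 and Cacna2d3, Cacnb1 and Cacnb3, Cacng2, Cacng4, Cacng5, Cacng7 and Cacng8, and Scn3b and Scn4b. Scn4b had the largest difference, -3.45 ± 0.65 (adjusted p = 0.00106), with 30, 27 and 26 reads in C57BL/6J against 2, 4 and 0. Of the genes that were higher, Scn1a differed by 0.80 ± 0.089 (adjusted p = 2.53e-05) and Scn9a by 0.72 ± 0.065 (5.57e-06) in edgeR's test. Cell-type markers differed as well: 9 of 14 neuronal genes were lower and 3 higher in Cav1-null mice, 12 of 12 progenitor genes were lower, 7 of 10 genes of astrocytes and the oligodendrocyte lineage were lower and 1 higher, 6 of 10 genes of endothelium and microglia were lower and 2 higher, 6 of 9 tested sensory ganglion genes were lower and 0 higher (median log2 fold change -1.17), and 6 of 12 erythroid genes were higher and 2 lower. The part of these cell types in the comparison was not tested. Both strain comparisons of a day use the same C57BL/6J libraries.

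On d17 no channel gene was called in either comparison. For AKR/J 9 of 38 had an unadjusted p below 0.05 in edgeR's quasi-likelihood test (0.742% of all genes were called), and DESeq2 called 2 (6.58% of all genes) and the likelihood ratio test 3 (5.9%). For Cav1-null mice 3 of 38 did (0.0491% of all genes were called), and DESeq2 and the likelihood ratio test called 0. On d12 Cav1-null mice had 0 calls by the quasi-likelihood test among channel genes and among all 19475 genes (0%), with an unadjusted p below 0.05 for 5 and 4309 of them, and 2 channel genes by DESeq2 (10.5% of all genes) and by the likelihood ratio test (6.52%). Single libraries mattered here too. Without C57BL/6J d17 replicate 2, 13 channel genes were called for AKR/J and 10 for Cav1-null mice, when 26.4% and 13.6% of all genes were called. Without C57BL/6J d17 replicate 1 there was 1 for AKR/J (1.26% of all genes), and without C57BL/6J d12 replicate 3 there were 2 for Cav1-null mice on d12 (7.37%). A single model of all 27 libraries called 1 for AKR/J on d17 (3.6%) and 3 for Cav1-null mice on d12 (7.44%).

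The strain differences moved with the GC content of the genes. The 40 genes have a GC content of the longest transcript of 40.41% to 63.59%, and across the channel genes the Spearman correlation of the log2 fold change with GC content was -0.357 (n = 35), -0.496 and -0.659 (n = 38) for AKR/J on d12, d15 and d17 and -0.715, -0.537 and -0.707 (n = 38) for Cav1-null mice. Over all tested genes it lay between -0.511 and -0.349. Genes share libraries and base composition, so these are descriptions. When a trend of each library with GC content and length was removed, the counts became 2 higher and 4 lower for AKR/J on d12, 7 higher and 2 lower for AKR/J on d15, and 20 higher and 3 lower for Cav1-null mice on d15. The share of all genes called in these fits is not given, so the counts cannot be set against a background.

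In Cav1-null mice on d15, 10 of the 25 calls were the same after the trend was removed: Scn1a (0.80 before, 0.89 after), Scn2a (0.22 and 0.34), Scn3a (0.33 and 0.36), Scn9a (0.72 and 0.77), Cacna1d, Cacnb2 and Cacnb4 as higher, and Scn4b (-3.45 and -2.74), Cacng4 (-0.96 and -0.25) and Cacng8 (-1.26 and -0.46) as lower. Another 7 were called in the opposite direction, namely Cacna1a, Cacna1b, Cacna1c, Cacna1g, Cacna1h, Cacnb3 and Cacng7. In AKR/J on d15 Cacng5 (-1.20 and -1.02) and Cacng8 (-1.28 and -0.69) stayed lower, Cacna1a, Cacna1h and Cacnb3 turned to higher, and Cacna1i went to -0.40 without a call. On d12 Cacng3 was at -3.26 for AKR/J after the trend was removed, also called. Between days 22, 13 and 15 channel genes rose in the early phase and 13, 13 and 16 in the late phase (AKR/J, C57BL/6J and Cav1-null) with the trend removed, with at most 1 fall in a comparison. Of all genes 28.9%, 19.8% and 24.5% were then called in the early phase and 21.7%, 19% and 31.7% in the late phase. The late count of C57BL/6J thus went from 4 to 13.

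**Figure D4:**
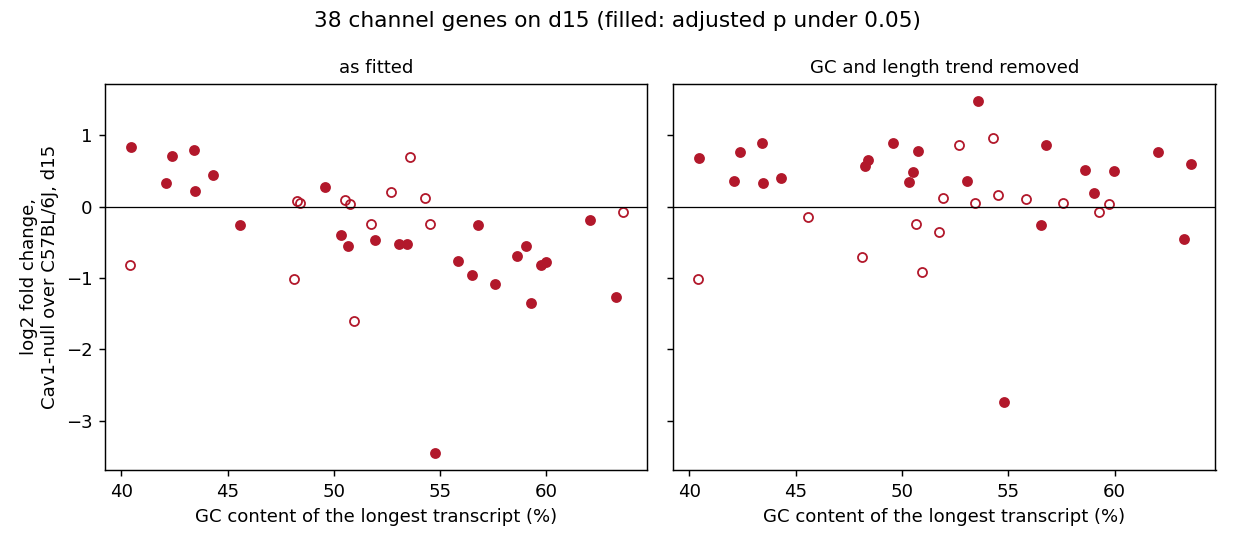
Log2 fold change of Cav1-null over C57BL/6J on d15 (y axis) by GC content of the longest transcript in percent (x axis), with a point for each of 38 channel genes, filled where the adjusted p was below 0.05, as fitted (left) and with the GC and length trend removed (right). As fitted, genes with a higher GC content lie lower (Spearman -0.537), and the lowest point in both panels is Scn4b.

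Whether the change between days itself differed from C57BL/6J was tested by the interaction of strain and day. No channel gene was called in any of the 4 tests by edgeR's quasi-likelihood test, where 0.0711% and 0.00468% (AKR/J, early and late) and 0.00472% and 0.252% (Cav1-null) of all genes were. An unadjusted p below 0.05 was found for 11 and 2 and for 3 and 3 of the 38 channel genes, and DESeq2 called 4 (4.83% of all genes) and the likelihood ratio test 2 (3.45%) for AKR/J early and 0 elsewhere. A single model of all 27 libraries called 8 for AKR/J early, all as greater rises, when 7.12% of all genes were called, and 0 in the other 3 tests. For Cacng3 the early rise in AKR/J was greater by 2.61 ± 0.59 on the log2 scale (adjusted p = 0.137 in edgeR's test), and for Scn3b by 1.51 ± 0.37 (adjusted p = 0.138). Without AKR/J d12 replicate 2 the AKR/J early count was 8 (14.8% of all genes called), and without C57BL/6J d12 replicate 3 it was 4 (1.74%). Without C57BL/6J d17 replicate 1 the late counts were 1 for AKR/J (3.7%) and 13 for Cav1-null mice (26.1%), and without C57BL/6J d12 replicate 2 the Cav1-null early count was 2 (7.3%).

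The third question was whether the splicing of channel transcripts changed with the day. Reads that span a junction were compared with the other reads at the same splice site, over all 27 libraries with strain as a term. Of 190 junctions in 26 channel genes, 20 pairs of junction and site in 6 genes had at least 10 reads at the site in every library. In the early phase 4 of the 20 pairs were called, against 4.78% of all 9329 pairs, and in the late phase 0, against 0.793% (limma, with an unadjusted p below 0.05 for 1 pair). With a pseudocount of 5 in place of 0.5 no pair was called in the early phase by limma (an unadjusted p below 0.05 for 11 of 20), when 8.09% of all pairs were. The 4 pairs are the use and the skipping of the Cacna1g cassette exon at its upstream and its downstream site. Where only 2 junctions share a site, use and skipping are the same test with the sign reversed, here and below. The 4 calls thus stem from 2 tests of 1 exon.

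At the upstream site of the Cacna1g exon the group share of reads that enter the exon was 0.893% on d12, 4.25% on d15 and 5.3% on d17 in AKR/J, 0.69%, 5% and 6.78% in C57BL/6J and 2.05%, 6.03% and 6.52% in the Cav1-null strain, from 199 to 457 reads a group. The d12 libraries had 2, 0 and 0 such reads in AKR/J, 1, 1 and 1 in C57BL/6J and 1, 0 and 4 in the Cav1-null strain, and the d15 libraries 10, 1 and 6, then 6, 5 and 11, then 3, 5 and 4. All but 1 of the d15 libraries, AKR/J replicate 2 at 0.588%, lay above the highest d12 library at 2.9%. The log2 ratio of inclusion to skipping rose by 1.93 ± 0.40 from d12 to d15 (adjusted p = 0.0047, limma). At the downstream site the shares were 1.33%, 9.24% and 11.1% in AKR/J, 3.57%, 8.53% and 11.1% in C57BL/6J and 5.91%, 11.4% and 12.2% in the Cav1-null strain, and the ratio rose by 1.57 ± 0.44 (adjusted p = 0.0385). Downstream, d12 and d15 overlapped in C57BL/6J, where a d12 library was at 4.35% and a d15 library at 3.77%, and in Cav1-null mice, where 2 of the d12 libraries (4.29% and 14.3%) lay above a d15 library at 3.33%. The count was 2 pairs, both of Cacna1g, when any of these libraries was left out: AKR/J d12 replicates 1 and 3, each AKR/J library of d15, C57BL/6J d12 replicates 2 and 3 and d15 replicates 1 and 3, and Cav1-null d12 replicate 1 and d15 replicates 1 and 3.

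The calls moved to Cacna1e when the minimum of 10 reads was asked of the sum over a group, an alternative chosen after seeing the data, under which 6 of 76 pairs in 17 genes were called in the early phase (2.47% of all pairs), 4 of Cacna1e and 2 at the upstream site of Cacna1g, while its downstream site had an adjusted p of 0.0708, and 0 in the late phase (0.217%, with an unadjusted p below 0.05 for 9). At the downstream site of its 57-base exon the share of inclusion was 4.76%, 49.1% and 54.1% on d12, d15 and d17 in AKR/J, 26.4%, 54.9% and 62.2% in C57BL/6J and 20%, 52.6% and 58.7% in the Cav1-null strain. By library, the d12 shares were 0%, 0% and 14.3% in AKR/J (5, 9 and 7 reads), 21.4%, 30.6% and 0% in C57BL/6J (14, 36 and 3 reads) and 33.3%, 35.3% and 0% in Cav1-null mice (27, 17 and 31 reads), and the d15 shares lay between 33.3% and 59.5%. The AKR/J library at 33.3% on d15 overlapped the highest d12 libraries of Cav1-null mice, but within each strain d12 and d15 did not overlap. The log2 ratio rose by 2.70 ± 0.52 (adjusted p = 0.00658) at one site and by 2.30 ± 0.58 (0.0338) at the other. Junctions that the authors had filtered out also read as 0, and the pair was not tested when sites with such a 0 were left out, which left 2 called pairs, both of Cacna1g.

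Scn2a, the sodium channel gene described above, uses either exon of a neighbouring pair, which was read too thinly for the main test. The second exon of the pair took 0%, 11.5% and 31.2% of the reads on d12, d15 and d17 in AKR/J (15, 87 and 160 reads), 14%, 22.5% and 32.7% in C57BL/6J (43, 129 and 165 reads) and 5.97%, 19.6% and 25.5% in Cav1-null mice (67, 97 and 188 reads). On d17 every library lay between 17.6% and 36%. The change did not pass the test in either phase (adjusted p = 0.11 and 0.45, limma, with the minimum set over a group). For Scn8a the exon next to a shared donor site took 0%, 43.5% and 65.9% in AKR/J, 10%, 57.8% and 83% in C57BL/6J and 25%, 59.5% and 67.9% in the Cav1-null strain from 8 to 64 reads a group, too few for a test. For Cacna1a the corresponding shares were 30%, 64.7% and 75.6%, then 51.8%, 63.1% and 84.8%, then 36.7%, 52.4% and 86.2%, at junctions that an overlapping gene shares (adjusted p = 0.18 and 0.29, limma, with the minimum set over a group).

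**Figure D5:**
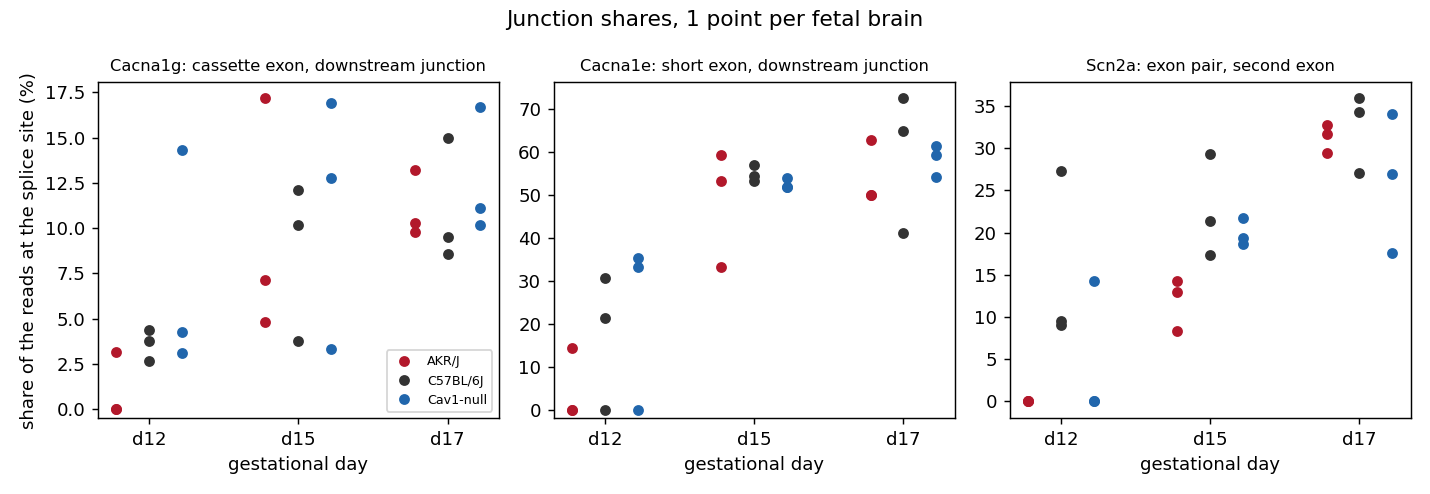
Share (%) of the reads at the splice site that use the Cacna1g exon and the Cacna1e exon at their downstream junction and the second exon of the Scn2a pair, by gestational day, with a point for each library, colored by strain. The Cacna1g exon stays at or below 17.2% in every library, and the Cacna1e exon is at 0% to 35.3% on d12 and at 33.3% to 59.5% on d15.

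The other genes of the pathway were taken from a list of 36 partners, that is genes of proteins that bind, anchor or regulate these channels, and of the related NALCN leak channel. In the early phase 21 of 33, 12 of 34 and 21 of 33 tested partners rose and 0, 0 and 3 fell (AKR/J, C57BL/6J and Cav1-null), when 14.8%, 7.08% and 11.6% of all genes rose. In the late phase 16 of 34, 8 of 34 and 22 of 33 rose and 3, 1 and 2 fell, when 11.6%, 7.46% and 14.5% of all genes rose. Camk2b, a kinase that modulates both channel families, rose most early in AKR/J (3.78 ± 0.326, adjusted p = 0.000758) and in Cav1-null mice (1.52), and Cntn1, an axonal adhesion protein that binds sodium channels, early in C57BL/6J (2.0). In the late phase Fgf12, which binds the tail of the sodium channel alpha subunit, led in AKR/J (1.46), Unc80, a subunit of the NALCN complex, in C57BL/6J (1.18) and Cntn1 in Cav1-null mice (1.33). The lowest called changes were those of Nedd4, a ubiquitin ligase for sodium channels, at -0.86 late in AKR/J and -0.94 early in Cav1-null mice, and of Rest, the repressor that silences neuronal channel genes outside neurons, at -0.79 and -0.57 late in C57BL/6J and Cav1-null mice.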

How the data were processed

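Reads on genes and on splice junctions were measured in 27 fetal brain libraries, 3 for each strain and day. Per the labels and the study's methods, the authors trimmed and filtered reads (FastQC, cutadapt, fastp), aligned them to GRCm39 with STAR and deposited read counts per gene and per junction; the counting tool, its strand setting and versions were not given in the sources used here, so overlapping or antisense genes cannot be told apart. The authors removed junctions with few reads, short overhangs or multi-mapped reads. Gene counts were tested with edgeR 4.0.16 (quasi-likelihood F test, filterByExpr, TMM, Benjamini-Hochberg over all tested genes, R 4.3.3), each comparison on its own libraries. CPM was scaled by TMM over all libraries, and lengths came from GENCODE M39. Junction reads against other reads at a site (minimum 10 in every library, pseudocount 0.5) were tested with limma 3.58.1 with strain and day as terms. Tests were run on simulated data first. Alternatives were DESeq2 1.42.0, a likelihood ratio test, other scalings and filters, a single model of all libraries, a replicate block and left-out libraries; removal of a GC and length trend, the group minimum and the removal of zeros were chosen after seeing the data. Members, marker lists and partners were chosen with earlier results of these data known. Values by library are given for the largest called changes in each comparison and the genes called in all 3 strains, up to 4 a phase by median change. Some items that the rule chose are not reported here.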

Additional observations from a re-analysis of the deposited data

How the results depend on the processing

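Of 350 refitted fold changes of the genes chosen for values by library, 294 kept their call, 56 lost it and 0 changed sign. In a single model of all 27 libraries the counts of called channel genes were 8 (late phase of AKR/J), 7 and 2 (late phase of C57BL/6J and Cav1-null mice), 26, 11 and 1 (AKR/J against C57BL/6J on d12, d15 and d17), 3 and 12 (Cav1-null mice on d12 and d15) and 8 (AKR/J early change against that of C57BL/6J). DESeq2 and the likelihood ratio test gave 8 and 7 in the late phase of C57BL/6J, 2 and 3 for AKR/J on d17, 2 and 2 for Cav1-null mice on d12, and 4 and 2 for the AKR/J early change. Library sizes alone gave 1 and no filter on low counts gave 1 for AKR/J on d17, and 1 and 3 for the AKR/J early change. With the GC and length trend removed the counts were 13 (late phase of C57BL/6J), 6 (AKR/J on d12) and 9 (AKR/J on d15). The share of all genes called is not given for DESeq2 and the likelihood ratio test late in C57BL/6J. Nor is it given for library sizes alone, no filter on low counts, or the strain comparisons with the trend removed. Those counts are thus not set against a background. The cause of these shifts was not tested.

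With 1 library left out, counts ranged from 15 to 27, 0 to 19 and 11 to 24 in the early phase (AKR/J, C57BL/6J and Cav1-null), from 8 to 15, 0 to 14 and 16 to 18 in the late phase, from 0 to 20, 11 to 17 and 0 to 13 for AKR/J on d12, d15 and d17, from 0 to 2, 21 to 25 and 0 to 10 for Cav1-null mice, from 0 to 8 and 0 to 1 for the AKR/J changes and 0 to 2 and 0 to 13 for the Cav1-null changes, and from 2 to 4 and 0 to 0 for junction pairs. These ranges are not set against the share of all genes called, except where it is stated above. Early junction counts were 0 of 20 with a pseudocount of 5 (8.09% of all pairs) and 2 of 43 without AKR/J (1.07%). They were 2 of 10 without sites holding a 0 (4.66%) and 2 of 29 with that and the group minimum (3.35%). Late counts were 1 of 20 (Cacna1c) with a pseudocount of 5, near the 3.67% of all pairs, and 1 of 29 (Cacnb2) with both (0.607%).

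The labels number the replicates without saying that same-numbered samples belong together. No comparison had a correlation above 0.1 in all 3 same-numbered pairs (range -0.503 to 0.432). This check cannot show whether such samples shared a litter. With the number as a replicate block 0 channel genes were called in the early phase of C57BL/6J and 2 for AKR/J on d17. The share of all genes called with the block is not given. The other counts stayed within 1.5 times. Genes with few reads, such as Scn4b and Cacng3 on d12, limit what depth can resolve.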

Other observations

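Scn10a and Scn7a, known from sensory ganglia, had their highest values in 3 libraries, and so did Prph, a marker of those ganglia, though less apart from the rest. Cav1-null d12 replicate 3 held 5.95 CPM of Scn10a, 5.82 of Scn7a and 56.9 of Scn9a, with 28.7 CPM of Prph, against 0.517 and 0.367 CPM of Scn10a and 1.34 and 0.642 of Prph in replicates 1 and 2. C57BL/6J d15 replicate 1 held 4.78 CPM of Scn10a, 4.7 of Scn7a and 25.6 of Prph, and AKR/J d15 replicate 2 held 2.11, 5.56 and 20.7 CPM. Prph was at 4.07 and 15.7 CPM in the other C57BL/6J libraries of d15 and at 4.43 and 16 CPM in those of AKR/J, and Scn10a and Scn7a in the libraries with 15.7 and 16 CPM were at 0.796 and 1.03 and at 0.959 and 1.66 CPM. Scn11a did not stand above the other replicates in the first and second of these: it was at 0.661 CPM in the Cav1-null library, against 1.83 and 1.5 in the other replicates, and at 1.59 in the C57BL/6J library, against 1.62 and 0.472. Scn9a was at 43.7 CPM in the C57BL/6J library, against 44.4 and 44.7. Summed over the 10 sensory markers the 3 libraries were at 163, 135 and 112 CPM, within a range of 44.8 to 163 CPM over all libraries, and the other AKR/J libraries of d15 were at 80.5 and 135 CPM. The part of sensory tissue in the values of Scn9a in these libraries was not tested.

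Over all libraries, the 14 skeletal muscle genes summed to 29.3 to 181 CPM, the 10 retinal genes to 34.7 to 226, the 10 genes of astrocytes and the oligodendrocyte lineage to 157 to 566 and the 10 genes of endothelium and microglia to 71.4 to 285. In the 6 comparisons of days (edgeR's test, d12 to d15 and then d15 to d17, each in the order AKR/J, C57BL/6J, Cav1-null) the glial genes rose in 4, 4, 1, 3, 2 and 10 cases, the muscle genes in 2, 0, 1, 1, 1 and 2, the retinal genes in 1, 0, 0, 0, 0 and 0, and the vascular and microglial genes in 2, 0, 0, 2, 1 and 0. The retinal genes fell in 1, 1, 1, 2, 1 and 1 cases, the vascular and microglial genes in 0, 0, 1, 3, 0 and 0, and a single glial and a single muscle gene fell, both early in Cav1-null mice. Of the 12 erythroid genes 11, 4, 5, 3, 3 and 6 fell and 0, 0, 4, 5, 6 and 0 rose. The yolk sac genes fell in 6, 0, 0, 0, 0 and 1 cases and rose in 0, 1, 2, 2, 1 and 1, and between d12 and d15 in AKR/J 5 of 5 tested trophoblast and decidua genes fell.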
